A study of Mus musculus with 4 samples.

Results

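The genes described here carry adrenergic and muscarinic signals into the heart muscle cell. They are 9 of the 23282 genes listed for the heart, and each was found by its symbol: the receptors Adrb1, Adra1a, Adra1b and Chrm2, the adenylyl cyclases Adcy5 and Adcy6, the G protein α subunits Gnas and Gnai2, and the regulator Rgs2. Hearts of male CDF1 mice were profiled by QuantSeq 3′ mRNA-seq, which reads a short stretch near the 3′ end of each polyadenylated transcript. The normal control group E(−)T(−) had neither exercise nor tumor, and the normal exercise group E(+)T(−) ran on a motorized treadmill at high intensity every other day. The cancer control group E(−)T(+) received CT26 murine colorectal carcinoma cells through the tail vein and did not run, and the cancer exercise group E(+)T(+) had both the cells and the treadmill. The labels give postnatal day 28 as the age in all 4 groups, which the methods give as the age at purchase, and no group carries an engineered allele. The cells spread through the blood to several organs, so the tumor groups model disseminated disease rather than a single mass. Each group has 1 heart library, and the sources used here do not say whether it came from 1 mouse or from pooled hearts. The spread between animals is therefore unknown, no difference between groups was tested, and every interval given here covers counting error only. Reads that are PCR copies are not independent molecules, so the true counting error may be wider.

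Noradrenaline released by sympathetic nerves and adrenaline from the blood act on β1-adrenergic receptors, whose stimulatory G protein switches on adenylyl cyclase, and the cyclic AMP that results activates protein kinase A and raises the rate and force of contraction. Acetylcholine from the vagus nerve acts on the M2 muscarinic receptor, whose inhibitory G protein restrains the same cyclase and slows the heart. The α1-adrenergic receptors use another G protein, Gq, to reach phospholipase C, and RGS proteins end G protein signals by speeding the hydrolysis of GTP.

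The libraries held between 6595421 and 11545984 reads, counts that were recovered from the deposited normalized values. Globin genes took 7.86% to 8.76% of the reads of the other 3 libraries and 37.3% of those of E(+)T(+). This library therefore stood apart, and values scaled to all reads put it lower: under that scaling the median gene had a log2 change of −0.587 for exercise with tumor, E(+)T(+) vs. E(−)T(+), and −0.739 for the tumor with exercise, E(+)T(+) vs. E(+)T(−), and the values below use the deposited normalization unless stated otherwise. Of the 10 cardiomyocyte markers examined, 10 were detected and none passed 2-fold in any comparison. Their summed level was 48300, 49000, 52500 and 54700, in reads per 1000000 of the fitted library size, for the groups E(−)T(−), E(+)T(−), E(−)T(+) and E(+)T(+), the order used for all lists of 4 values here. Markers of other cells moved between libraries. The 8 neutrophil markers summed to 14.1, 10.0, 359 and 691, with 7 of 8 past 2-fold upward in both tumor comparisons. The 8 fibroblast markers summed to 2890, 3460, 6250 and 3640, with 4 of 8 past 2-fold upward in E(−)T(+) vs. E(−)T(−) and 4 of 8 downward in E(+)T(+) vs. E(+)T(−). The 9 leukocyte and macrophage markers summed to 237, 285, 459 and 305. Of the 10 erythroid markers listed, 9 were in the data and summed to 74900, 72900, 74800 and 533000. The 8 adipocyte markers summed to 2550, 1770, 1530 and 2450, and the 5 brown adipocyte markers to 1480, 1630, 1050 and 1860. Most reads of the brown adipocyte list are of Cox7a1. Its sum hides Ucp1, with 0, 0, 0 and 814 reads, and Elovl3, with 2, 1, 0 and 47. With exercise in the tumor groups 2 of these 5 markers were 2-fold higher and 1, Dio2, was 2-fold lower. The 8 atrial markers summed to 1770, 2220, 1160 and 3470, the 9 smooth muscle and pericyte markers to 523, 902, 694 and 691, and the 9 endothelial markers to 1050, 820, 908 and 1080. The 8 neuronal markers summed to 29.1, 32.4, 18.1 and 37.7, with Snap25 among those at 0 in all 4 libraries, the 5 glia and Schwann cell markers to 50.2, 40.2, 20.9 and 16.5, and the 7 lung epithelium markers to 72.2, 21, 67.3 and 204. The part of these cells in the values below was not tested, and in whole hearts fewer cells of a type and less RNA per cell cannot be told apart.

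The promoters of Adrb1 and Rgs2 are shown because these were the pair of genes with the widest range across the 4 libraries. Each runs from 250 bases before the annotated start to 50 bases after it, 5′ to 3′ along the gene's own strand, from the RefSeq promoter table for GRCm38.p6, the build also known as mm10. Capitals mark the core of the cyclic AMP response element, TGACG, or the same letters on the other strand, CGTCA. Adrb1 lies at chr19:56721867-56722166 on the plus strand and Rgs2 at chr1:144004100-144004399 on the minus strand.
Adrb1: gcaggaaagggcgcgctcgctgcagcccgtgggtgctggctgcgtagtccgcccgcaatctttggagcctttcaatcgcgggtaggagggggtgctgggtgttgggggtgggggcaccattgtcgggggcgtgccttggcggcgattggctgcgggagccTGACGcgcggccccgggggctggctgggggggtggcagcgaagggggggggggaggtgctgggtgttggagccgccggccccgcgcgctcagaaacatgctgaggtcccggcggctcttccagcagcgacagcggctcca
Rgs2: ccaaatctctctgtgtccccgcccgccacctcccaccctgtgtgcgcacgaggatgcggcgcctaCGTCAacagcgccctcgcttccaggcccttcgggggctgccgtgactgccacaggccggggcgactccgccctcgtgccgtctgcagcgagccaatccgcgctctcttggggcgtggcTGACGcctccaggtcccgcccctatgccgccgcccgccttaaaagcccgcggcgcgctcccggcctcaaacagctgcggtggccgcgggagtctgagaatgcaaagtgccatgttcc
The Adrb1 promoter holds TGACG with its first base 90 bases before the start, and the Rgs2 promoter holds TGACG 67 bases and CGTCA 185 bases before it. TGACG or CGTCA occurs in 20.8% of the 32851 promoters of this length in the table. Entries matched 6 of the 9 genes and gave 10 promoters. Of the 4 Gnas promoters 3 hold a single CGTCA, 38, 57 and 216 bases before their starts. The windows of the first 2 of these overlap, and their match is the same genomic site. No such letters stand in the windows of Chrm2, Adra1b and Adcy5. The full palindromic element occurs in 1.79% of all promoters and in 0 of these 10. Adra1a, Adcy6 and Gnai2 had no entry. These matches describe letters in a window and not binding.

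**Figure D1:**
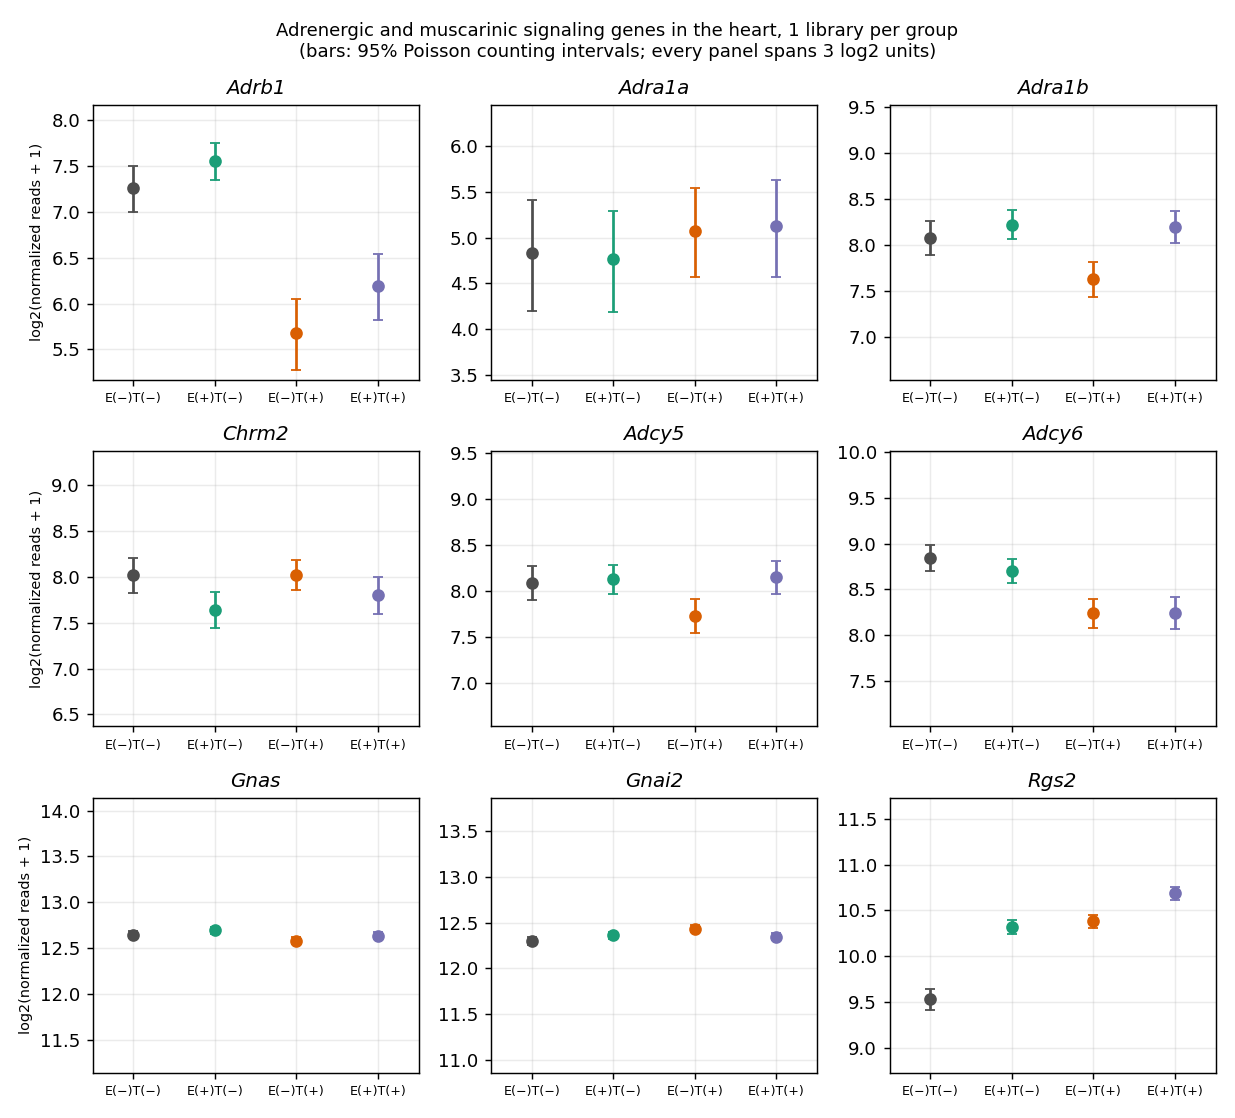
Deposited log2(normalized read count + 1) of each of the 9 genes in the 4 heart libraries, 1 point per library, with 95% Poisson intervals of the recovered reads, and every panel spanning the same number of log2 units. Adrb1 lies lower in the 2 tumor libraries, at 5.68 and 6.20 against 7.26 and 7.55, Rgs2 is lowest in E(−)T(−) at 9.53, and Gnas and Gnai2 are nearly level.

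Of the 9 genes, Adrb1 differed most between libraries and was lower with the tumor. This β1-adrenergic receptor is the main catecholamine receptor of the working heart muscle cell, and its gene spans chr19:56722199-56733113 on the plus strand of GRCm38 in GENCODE M21. Its deposited log2 value was 7.26 in the normal control, 7.55 in the normal exercise, 5.68 in the cancer control and 6.20 in the cancer exercise library, from 133, 206, 57 and 66 reads. Both tumor libraries lay below both libraries without tumor. In E(−)T(+) vs. E(−)T(−), the change of the tumor in sedentary mice, Adrb1 fell by 1.59 on the log2 scale (3.0-fold, 95% interval −2.07 to −1.14). Of the genes whose mean reached 100 normalized reads, 1.92% had a lower log2 change. In E(+)T(+) vs. E(+)T(−), the change of the tumor in exercised mice, it fell by 1.36 (2.56-fold, 95% interval −1.79 to −0.962), and 1.92% of those genes had a lower change. These comparisons share no library, and the former does not use the globin-rich E(+)T(+). The differences with exercise were not resolved at this depth, with a log2 change of 0.291 (95% interval −0.032 to 0.615) without tumor and of 0.520 (95% interval −0.012 to 1.06) with tumor, the latter lying between −0.064 and 0.521 under the other scalings. The range of Adrb1 over the 4 libraries was 1.88 log2 units, or 3.67-fold, wider than that of 95.1% of the 7077 genes whose mean reached 100 normalized reads. The summed cardiomyocyte markers stood at 52500 and 54700 in the tumor libraries against 48300 and 49000 in the others. Single markers differed in direction: 6 of 10 were above 0 with the tumor in sedentary mice and 7 of 10 in exercised mice. Tnnt2 changed by 0.665 and 0.489 and Actc1 by −0.847 and −0.464. Their part in the values of Adrb1 was not tested. GENCODE M21 ends Adrb1 at position 56733113 and RefSeq at 56725150, and the annotation used for the counting is not given in the sources used here, which matters for an assay that reads 3′ ends.

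Differentially expressed genes (DEGs) were taken as those with a fold change of at least 2 where at least 1 library of the pair reached 4 normalized reads. The methods name the 2-fold change and a normalized read count of 4, but not which library must reach it or on which scale, and the choice made here is the wider one. Of the 9 genes only Adrb1 passed, and it also did with a log2 value of 4 as the minimum. In E(−)T(+) vs. E(−)T(−), 1 of 9 was lower and 0 higher, where 13.1% of the 14317 genes tested were lower, 14.6% higher and 27.6% either. In E(+)T(+) vs. E(+)T(−), 1 of 9 was again lower and 0 higher, where 11.1% of 14289 genes were lower, 12.0% higher and 23.0% either. A count of 1 in 9 is close to these shares of all genes and says nothing of the 9 genes as a group. Many of the genes past 2-fold had few reads: among the 7077 genes whose mean reached 100, the mean of Adrb1 being 115, 6.92% and 4.51% were 2-fold lower in the 2 tumor comparisons.

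In the exercise comparisons no gene of the 9 reached a DEG. Without tumor the count was 0 of 9, where 5.88% of the 13937 genes tested were higher, 6.40% lower and 12.3% either. With tumor it was also 0 of 9, where 9.39% of 14363 genes were higher, 10.0% lower and 19.4% either. The median log2 change of the 9 genes was 0.044 for exercise without tumor and 0.052 with tumor, against 0.002 and −0.012 over all genes tested. For the tumor the medians were −0.066 in sedentary and −0.015 in exercised mice, against −0.011 and −0.009. As a group the 9 genes thus sat close to the middle of all genes.

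**Figure D2:**
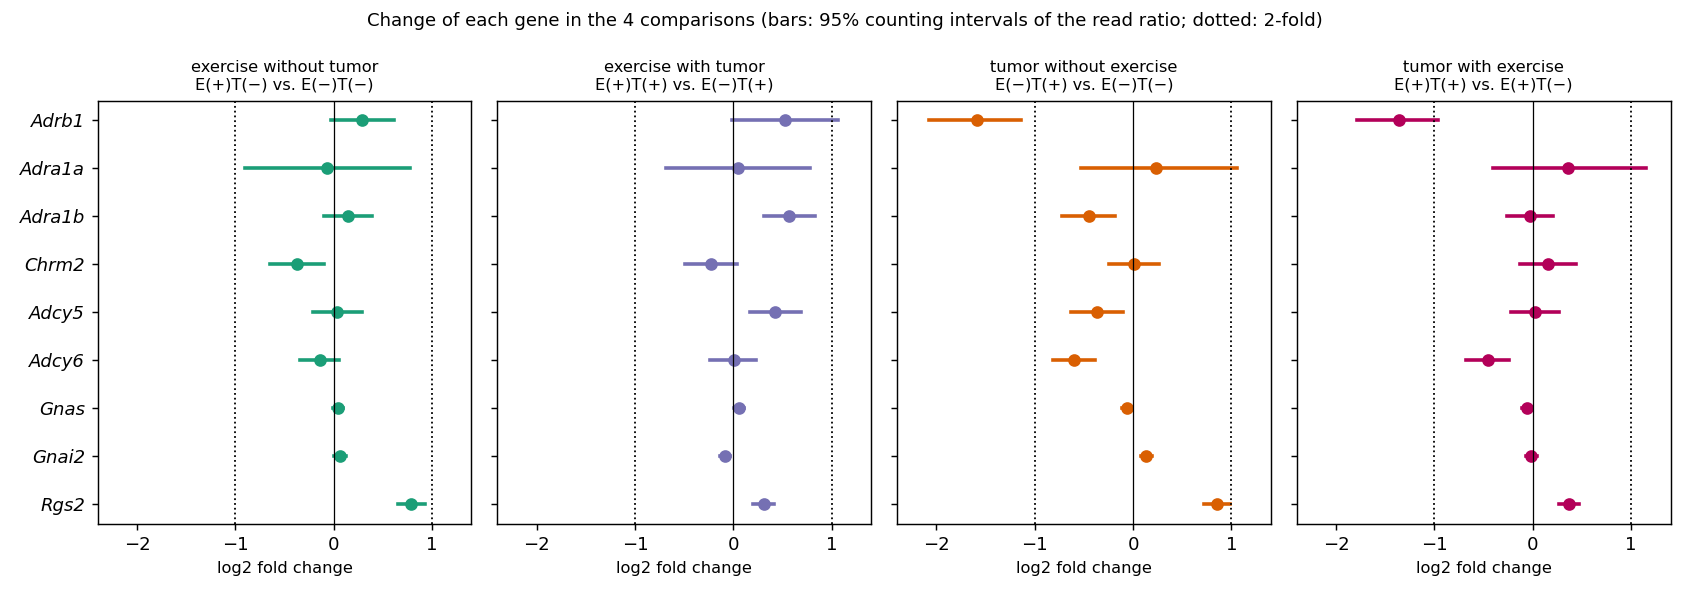
Log2 fold change of each of the 9 genes in the 4 comparisons, with 95% counting intervals of the read ratio and dotted lines at 2-fold. Adrb1 lies beyond the line in the 2 tumor comparisons, at −1.59 and −1.36, and Rgs2 lies to the right of 0 in all 4, from 0.306 to 0.851, though with reads scaled to library size it was below 0 in the 2 comparisons that use E(+)T(+) (−0.280 and −0.351).

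The α1-adrenergic receptors did not share the pattern of Adrb1. Adra1b, on the minus strand at chr11:43774606-43901210, encodes the α1B receptor that couples to Gq, and its log2 values were 8.08, 8.22, 7.63 and 8.20 from 235, 329, 223 and 267 reads. E(−)T(+) was the low library and the other 3 lay close together. Its log2 change was −0.453 for the tumor in sedentary mice (95% interval −0.725 to −0.183) and −0.027 in exercised mice (95% interval −0.266 to 0.210). For exercise it was 0.143 without tumor (95% interval −0.102 to 0.391) and 0.569 with tumor (95% interval 0.308 to 0.833), the latter turning to −0.017 with reads scaled to library size. Adra1a, at chr14:66635251-66771168 on the plus strand, encodes the α1A receptor and had few reads, 24, 29, 37 and 31, with log2 values of 4.84, 4.77, 5.07 and 5.12. Its widest interval, for exercise without tumor, ran from −0.900 to 0.775, so that a change short of about 2-fold could not be detected at this depth. The reads of Adra1b per read of Adrb1 were 1.77 (95% interval 1.42 to 2.2), 1.60 (1.34 to 1.91), 3.91 (2.91 to 5.33) and 4.05 (3.08 to 5.38). This ratio is taken within a library and so does not depend on the scaling between libraries, and its intervals in the tumor libraries do not overlap those without tumor.

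Further adrenergic receptors gave little to measure. Adra1d, Adra2a, Adra2b and Adra2c had at most 14 reads in any library. Adrb3, the β3 receptor of fat cells, had 36 reads in E(−)T(−) and then 1, 2 and 5, and was looked at after its values were seen. Of the 8 adipocyte markers, 7 were 2-fold lower with exercise in normal mice (median log2 change −2.16) and 7 with the tumor in sedentary mice (median −3.51), which the sum of the list hides, since most of its reads are of Fabp4. Adipoq had 317, 78, 76 and 356 reads. Their part in the values of Adrb3 was not tested.

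Chrm2, the M2 muscarinic receptor through which the vagus slows the heart, lies at chr6:36388084-36528414 on the plus strand. Its log2 values were 8.02, 7.64, 8.02 and 7.80 from 225, 220, 294 and 203 reads, and both exercise libraries lay below both sedentary ones. The log2 change of exercise was −0.373 without tumor (95% interval −0.649 to −0.100), a 1.30-fold difference, and −0.223 with tumor (95% interval −0.489 to 0.039). Neither neared 2-fold. For the tumor it was 0.008 in sedentary mice (95% interval −0.248 to 0.265) and 0.158 in exercised mice (95% interval −0.125 to 0.440). Chrm2 is denser in atrial than in ventricular muscle. The atrial markers summed to 1770, 2220, 1160 and 3470, higher in the exercise library of each pair, and most of these reads are of Nppa. Of the markers tested, 6 of 8 were above 0 for exercise without tumor and 6 of 7 with tumor, while Nr2f2 was lower, at −0.397 and −0.451. Their part in the values of Chrm2 was not tested. The other muscarinic receptors had few reads: Chrm1, Chrm3 and Chrm4 at most 23 in a library, and Chrm5 none.

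Adrb1 and Chrm2 act on the same cyclase in opposite directions. The reads of Adrb1 per read of Chrm2 were 0.591 (95% interval 0.473 to 0.736), 0.936 (0.771 to 1.14), 0.194 (0.143 to 0.258) and 0.325 (0.242 to 0.431). The ratio was lower in both tumor libraries than in both others, and at either tumor state it was higher in the exercised library. The intervals of E(−)T(−) and E(+)T(−) do not overlap, and those of E(−)T(+) and E(+)T(+) do.

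The α subunits of the G proteins varied least. Gnas, at chr2:174284320-174346744 on the plus strand, encodes the stimulatory subunit that links Adrb1 to the cyclase. Its log2 values were 12.65, 12.69, 12.58 and 12.63 from 5599, 7315, 6951 and 5812 reads, a range of 0.110, narrower than that of all but 0.777% of the 7077 genes. Gnai2, at chr9:107614125-107635367 on the minus strand, encodes an inhibitory subunit used by Chrm2. It stood at 12.30, 12.36, 12.43 and 12.35 from 4399, 5823, 6273 and 4766 reads, a range of 0.134, with 1.53% of genes narrower. Some of these differences exceed their counting intervals but amount to a fold of 1.08 for Gnas and 1.10 for Gnai2 at most. Some of their signs depend on the scaling: the change of Gnai2 with the tumor in sedentary mice was 0.134 and ran from −0.034 to 0.153 under the other scalings. Gnas in both tumor comparisons and Gnai2 in both exercise comparisons kept their signs under those scalings. The alternative first exons of the Gnas locus share their 3′ exons, so that 3′ reads do not separate its transcripts. Near its 3′ end a gene on the opposite strand, Gm20721, overlaps it, and whether reads were counted by strand is not given in the sources used here. The reads of Gnas per read of Gnai2 were 1.27, 1.26, 1.11 and 1.22, lowest in E(−)T(+) (95% interval 1.07 to 1.15).

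Adcy5 and Adcy6 are the main adenylyl cyclases of the heart muscle cell, and both are inhibited by calcium and by the inhibitory G protein. Adcy6, at chr15:98589973-98610076 on the minus strand, had log2 values of 8.84, 8.70, 8.24 and 8.24 from 400, 459, 342 and 276 reads. Both tumor libraries lay below both others. The log2 change of the tumor was −0.603 in sedentary mice (1.52-fold, 95% interval −0.817 to −0.392) and −0.458 in exercised mice (95% interval −0.681 to −0.241), short of 2-fold. With reads scaled to library size the latter reached −1.18 at the lowest, and relative to the median gene it stayed between −0.440 and −0.429. Exercise gave −0.143 without tumor (95% interval −0.340 to 0.054) and 0.002 with tumor (95% interval −0.233 to 0.234). Gm29331 is annotated antisense to the 3′ end of Adcy6, and its reads cannot be told apart from those of Adcy6 without strand.

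Adcy5, at chr16:35154877-35305738 on the plus strand, followed another course, with log2 values of 8.09, 8.13, 7.73 and 8.15 from 237, 308, 239 and 259 reads. Here only E(−)T(+) was low. The log2 change was −0.365 for the tumor in sedentary mice (95% interval −0.631 to −0.101) and 0.024 in exercised mice (95% interval −0.220 to 0.267). For exercise it was 0.036 without tumor (95% interval −0.213 to 0.287) and 0.425 with tumor (95% interval 0.167 to 0.686), the latter turning to −0.160 with reads scaled to library size. The reads of Adcy5 per read of Adcy6 were 0.593 (95% interval 0.502 to 0.698), 0.671 (0.579 to 0.777), 0.699 (0.590 to 0.827) and 0.938 (0.789 to 1.12). The interval of E(+)T(+) does not overlap those of the libraries without tumor and overlaps that of E(−)T(+).

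Rgs2 had the second widest range of the 9, 1.16 log2 units or 2.23-fold, wider than that of 82.5% of the 7077 genes. It encodes a small RGS protein that acts chiefly on Gq and can also restrain adenylyl cyclase, and lies at chr1:143999338-144004161 on the minus strand. Its log2 values were 9.53, 10.32, 10.38 and 10.69 from 643, 1410, 1509 and 1505 reads. E(−)T(−) was the lowest library, E(+)T(−) and E(−)T(+) had overlapping counting intervals, and E(+)T(+) was the highest. Exercise without tumor gave a log2 change of 0.790 (1.73-fold, 95% interval 0.655 to 0.928), and 97.8% of the genes whose mean reached 100 normalized reads had a lower change. The tumor in sedentary mice gave 0.851 (1.8-fold, 95% interval 0.719 to 0.988), and 89.5% of those genes had a lower change. These 2 comparisons share the library E(−)T(−). Some markers of contractile smooth muscle were low in that library too. Of the 9 smooth muscle and pericyte markers, 4 were 2-fold higher in the former comparison and 3 in the latter. Only 4 of the 9 were above 0 in each, and the median log2 change of the list was −0.092 and −0.144. The others, among them Rgs5 (−0.406 and −0.881) and Kcnj8 (−0.436 and −0.621), were lower in both. Tagln had log2 values of 7.24, 9.32, 9.43 and 9.37, and Cnn1 of 5.37, 8.24, 7.59 and 7.53. Their part in the values of Rgs2 was not tested. The remaining changes were smaller, 0.306 for exercise with tumor (95% interval 0.202 to 0.410) and 0.367 for the tumor in exercised mice (95% interval 0.262 to 0.474), and with reads scaled to library size they became −0.280 and −0.351, while relative to the median gene they stayed between 0.30 and 0.393. No comparison reached 2-fold.

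The design crosses exercise with the tumor, and the change of exercise with tumor minus that without tumor can be formed, though with 1 library per group it cannot be tested. It was largest in size for Rgs2, at −0.484 log2 units, and 65.9% of the 7077 genes had a smaller size. Adra1b followed with 0.426, larger than in 60.5% of genes, and Adcy5 with 0.389, larger than in 56.5%. The others ranged from −0.149 for Gnai2 to 0.229 for Adrb1. Differences of this size were thus common among all genes.

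The wider pathway was described with a list of 164 genes in 13 roles, all of them in the data and 8 of them without a read in any library. Exercise without tumor left 11 of 143 tested genes 2-fold higher (7.69%) and 6 lower (4.20%), against 5.88% and 6.40% of all genes. Exercise with tumor left 16 of 142 higher (11.3%) and 8 lower (5.63%), against 9.39% and 10.0%, a split that turned to 2 higher and 27 lower with reads scaled to library size. The tumor in sedentary mice left 12 of 141 higher (8.51%) and 21 lower (14.9%), against 14.6% and 13.1%, and in exercised mice 8 of 143 higher (5.59%) and 14 lower (9.79%), against 12.0% and 11.1%, and the latter became 5 and 57 with that scaling. The median log2 change of the list was 0.030 and 0.105 for exercise without and with tumor, and −0.180 and −0.073 for the tumor in sedentary and exercised mice.

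**Figure D3:**
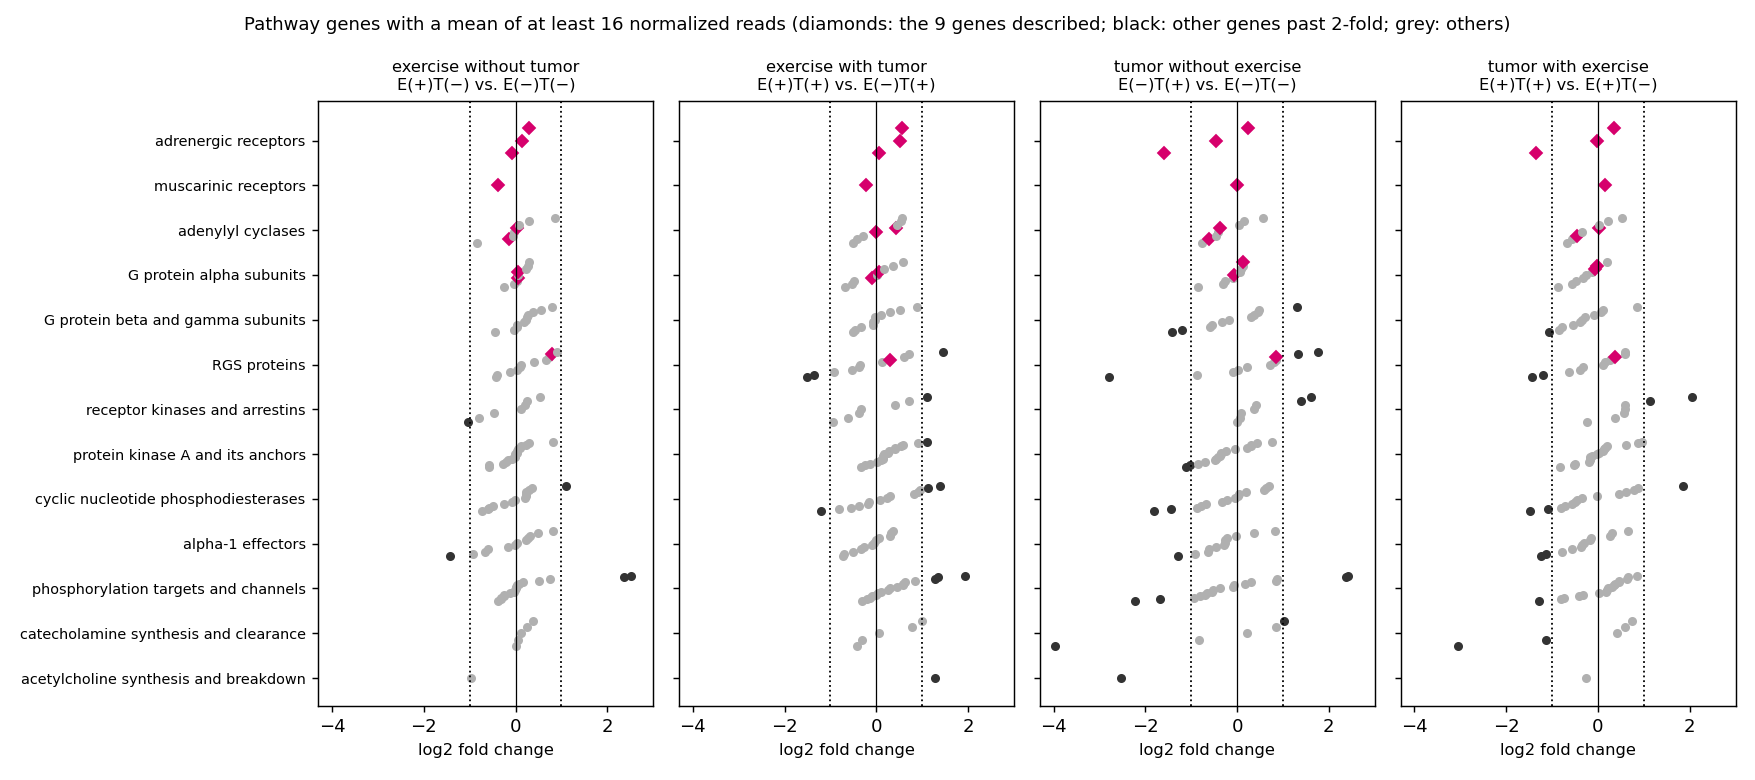
Log2 fold change of the 116 pathway genes whose mean reached 16 normalized reads, in rows by role and columns by comparison, with dotted lines at 2-fold. The 9 genes described are diamonds, and Adrb1 is the only diamond past a line, while black points past the lines are spread over most roles.

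Among the RGS proteins, the group to which Rgs2 belongs, the direction was mixed. Rgs4, which acts on Gi and Gq, had log2 values of 8.73, 8.83, 5.95 and 7.41 from 370, 503, 69 and 154 reads. It was low in both tumor libraries, as Adrb1 was, and fell by 2.79 in sedentary mice and by 1.43 in exercised mice, while it rose by 1.46 with exercise in the tumor groups. Of the 14 RGS genes tested in E(−)T(+) vs. E(−)T(−), 3 were higher (21.4%, against 14.6% of all genes) and 2 lower (14.3%, against 13.1%), among the former Rgs16 at 1.76 and Rgs18, known from platelets, at 1.33. Exercise without tumor left 0 of 13 past 2-fold, against 12.3% of all genes. Exercise with tumor left 2 of 14 higher and 2 lower (14.3% each, against 9.39% and 10.0% of all genes). The lower ones were Rgs17 at −1.51 and Rgs19 at −1.35. Rgs17 was also lower with the tumor in exercised mice, at −1.19.

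Receptor kinases and arrestins switch off and internalize adrenergic receptors. Of 7 tested, 2 were 2-fold higher and 0 lower in each tumor comparison, where 14.6% and 12.0% of all genes were higher, so that the count says little of the group. They were the same genes, Grk4 and Arrb2. Grk4, a kinase of G protein-coupled receptors, had 11, 10, 46 and 19 reads and a log2 change of 1.61 in sedentary and 1.14 in exercised mice. Arrb2, encoding β-arrestin 2, had 15, 9, 53 and 33 reads and changes of 1.39 and 2.04. Arrb2 is also abundant in leukocytes, whose markers summed to 237, 285, 459 and 305. Their part in the values of Arrb2 was not tested. Exercise without tumor left Arrb2 at −1.03 (95% interval −2.45 to 0.208). Adrbk2, the gene of the kinase GRK3, rose by 1.11 with exercise in the tumor groups.

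The phosphodiesterases break down cyclic AMP and cyclic GMP, and Pde4dip, which does not encode such an enzyme, was listed with them. This list held 3 of 18 genes lower and 0 higher with the tumor in sedentary mice, and 2 of 17 lower and 1 higher in exercised mice. The shares lower, 16.7% and 11.8%, were close to those of all genes, 13.1% and 11.1%. Of all genes, 14.6% and 12.0% were higher in these comparisons. Pde4a, specific for cyclic AMP, had log2 values of 8.91, 9.13, 7.09 and 8.05 and fell by 1.82 and 1.08. Pde1c, which is activated by calcium and calmodulin, had values of 9.06, 8.57, 7.63 and 7.08 and fell by 1.43 and 1.49. Both were lower in the 2 tumor libraries than in the 2 others. Pde4b, also specific for cyclic AMP, went the other way, at 9.22, 9.21, 9.93 and 11.05, and rose by 1.85 with the tumor in exercised mice and by 1.13 with exercise in the tumor groups. Pde9a, specific for cyclic GMP, was lower by a log2 change of −1.20 in the latter comparison. Pde8a rose by 1.09 with exercise without tumor and by 1.39 with exercise with tumor, on at most 31 reads.

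Protein kinase A carries the cyclic AMP signal to channels, pumps and transcription factors. The genes of protein kinase A, its inhibitors and its anchors were listed together with Rapgef3 and Rapgef4, which are none of these. Of these 18 genes, 3 were lower (16.7%, against 13.1% of all genes) and 0 higher (against 14.6%) with the tumor in sedentary mice. Among the lower ones were Akap1, an anchor at mitochondria, at −1.11 and Pkia, an inhibitor peptide of the kinase, at −1.03. Akap12, another anchor, rose by 1.10 with exercise in the tumor groups. Of 18 targets and channels tested, 2 were higher (11.1%) and 3 lower (16.7%) with the tumor in sedentary mice, against the same 14.6% and 13.1%. Hcn2, a channel of the pacemaker current, had 67, 68, 18 and 57 reads, fell by 2.22 with the tumor in sedentary mice and rose by 1.93 with exercise in the tumor groups. In E(−)T(+) alone Hcn2 was low. Kcne1, a subunit of a repolarizing potassium channel, and Ppargc1a, a coactivator of mitochondrial genes, rose by 1.34 and 1.27 with exercise in the tumor groups. Ucp1, a brown adipocyte marker, had reads in E(+)T(+) alone, and the part of brown fat cells in the values of Ppargc1a was not tested. Cacnb2, a subunit of the L-type calcium channel, fell by 1.29 with the tumor in exercised mice.

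Nr4a1 and Nr4a3, nuclear receptor genes that are switched on quickly by cyclic AMP and other signals, had the largest changes with exercise in normal mice among the 116 list genes whose mean reached 16 normalized reads. Nr4a1 had log2 values of 6.24, 8.77, 8.66 and 9.11 from 65, 481, 457 and 505 reads, and rose by 2.53 with exercise and by 2.42 with the tumor in sedentary mice. Nr4a3 had values of 4.29, 6.65, 6.67 and 7.29 and rose by 2.36 and 2.37. Both were low in E(−)T(−) and higher in the other 3 libraries, as Rgs2 was, and the changes named share that library. Their differences between the other 3 libraries stayed under 2-fold.

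The α1 pathway held Prkd1, a protein kinase D gene, which fell by 1.43 with exercise in normal mice, and Plcb1, a phospholipase C gene, which fell by 1.28 with the tumor in sedentary mice. With the tumor in exercised mice Itpr1, a calcium release channel opened by inositol trisphosphate, had a log2 change of −1.24 and Plcb3, a further phospholipase C gene, had −1.13. Among the β and γ subunits of G proteins, Gnb3 fell by 1.43 and 1.06 in the tumor comparisons. Gnb4 fell by 1.19 and Gng2 rose by 1.31 with the tumor in sedentary mice. No α subunit whose mean reached 16 normalized reads passed 2-fold in any comparison, Gnas and Gnai2 included, and no adenylyl cyclase of that level did either.

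**Figure D4:**
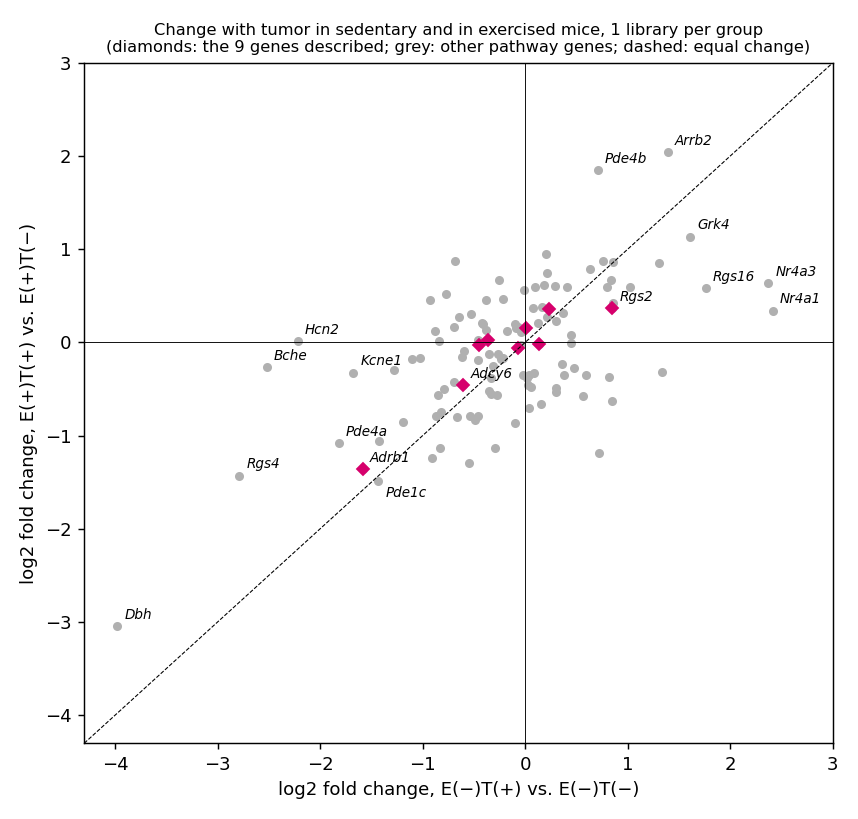
Log2 fold change with the tumor in sedentary mice (horizontal) and in exercised mice (vertical) for the 116 pathway genes whose mean reached 16 normalized reads, with the line of equal change dashed. Adrb1 is among the 6 that were 2-fold lower in both, and Dbh is the lowest.

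Of the 116 list genes, 43 (37.1%) lay below 0 in both tumor comparisons and 30 (25.9%) above 0 in both, against 36.5% and 33.0% of all 11638 genes whose mean reached 16 normalized reads. At 2-fold or more, 6 (5.17%) were lower in both and 2 (1.72%) higher in both, against 3.25% and 3.69% of all genes.

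The transmitters themselves are made and cleared by a further set of genes. Dbh encodes the enzyme that turns dopamine into noradrenaline in sympathetic nerves and in chromaffin cells, and had log2 values of 6.58, 6.64, 2.60 and 3.60 from 83, 109, 6 and 10 reads. It was low in both tumor libraries and fell by 3.98 in sedentary mice (95% interval −5.66 to −2.99) and by 3.04 in exercised mice (95% interval −4.27 to −2.24), the lowest changes of those 116 genes in both. Dbh is also 1 of the 8 neuronal markers, and the other 7 summed to 18.4, 21.2, 17.5 and 36.4. Of the 5 glia and Schwann cell markers, 3 were 2-fold lower in each tumor comparison, among them S100b with 136, 191, 54 and 56 reads and Mbp with 69, 58, 15 and 9, and their part in the values of Dbh was not tested. Th, the first enzyme of the same route and a neuronal marker too, had 0, 0, 0 and 3 reads. Slc22a3, a transporter that takes up catecholamines outside nerves, fell by 1.14 with the tumor in exercised mice. For acetylcholine, Chat, Slc5a7 and Slc18a3 had no read in any library. Bche, encoding a plasma cholinesterase, had 105, 67, 23 and 46 reads, fell by 2.52 with the tumor in sedentary mice and rose by 1.29 with exercise in the tumor groups.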

How the data were processed

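Heart mRNA-seq of 4 groups, 1 library each, was analysed. Per the labels and the methods, the authors made QuantSeq 3′ libraries, aligned the reads with Bowtie2 to mm10, used Bedtools for the read counts of genes and adjusted these by the quantile method of edgeR. As deposited, each value is a log2(normalized read count + 1). Whole reads were recovered from them by fitting relative library sizes and a dispersion of 0.149 (largest difference from a deposited value 0.000745). All of the 25460 values of 5 to 99 reads (100%) came out within 0.1 of a whole read, and the recovery was tested on simulated data.

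Fold changes are differences of deposited values, so the pseudocount of 1 understates those of low genes. A gene was called at a fold change of at least 2 where either library reached 4 normalized reads. The study names these thresholds, but not which library must reach the minimum. A gene was tested, in the sense used here, if it met that minimum. Intervals are 95% Clopper-Pearson intervals of the read ratio given the fitted library sizes, or Poisson intervals for single libraries. With 1 library per group no p-value is given. Where rows share a symbol, that of highest mean was taken.

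The members, the pathway list, the marker lists and the rule for named genes were chosen with earlier results of these data known. Named were the 9 genes, up to 3 genes per role and comparison past 2-fold whose mean reached 16 normalized reads, and the 3 genes nearest to each of the 9 that passed 2-fold, by root mean square difference of centred values among genes whose mean reached 100. A few listed genes are not reported here by name. Alternatives covered scaling, pseudocount, depth and the minimum. Coordinates are from GENCODE M21 (GRCm38). Python 3.11.15, numpy 2.4.6, scipy 1.17.1 and pandas 2.3.3 were used.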

Additional observations from a re-analysis of the deposited data

Results flagged for a closer look

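Gnai2 differed in direction between the exercise comparisons: its log2 change was 0.063 without tumor (95% counting interval 0.006 to 0.120) and −0.086 with tumor (95% counting interval −0.141 to −0.032), a difference of −0.149. With 1 library per group the difference was not tested, and 23.9% of the 7077 genes whose mean reached 100 normalized reads had a difference of smaller size.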

How the results depend on the processing

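Adrb1 remained 2-fold lower in both tumor comparisons under 7 of 7 alternatives (log2 change −1.77 to −1.53 in sedentary and −2.08 to −1.32 in exercised mice). Of the 45 values of the 9 genes (4 changes and the crossed difference of each), all 45 moved by less than their counting interval with median-of-ratios scaling, with a trimmed mean of log ratios and with a pseudocount of 4. With reads scaled to library size 26 moved and 20 had another sign. Without globin genes 6 moved and 5 had another sign, and without genes over 1% of a library 8 moved and 10 had another sign. No paired analysis was possible because each group has 1 library. For the pathway list, exercise with tumor gave 2 higher and 27 lower genes with library size scaling, 1 and 28 when reads were also subsampled to the smallest library, and 10 and 5 with a minimum of 16 reads, against 16 and 8. The tumor in exercised mice gave 5 and 57, and 3 and 54, under the first 2 of these, against 8 and 14, and 4 higher with a minimum of 16. Exercise without tumor gave 6 higher with a pseudocount of 4 and 5 with a minimum of 16, against 11. With a deposited log2 value of 4 as the minimum, chosen after seeing the data, the higher and lower counts were 5 and 4 for exercise without tumor, 10 and 5 with tumor, 10 and 18 for the tumor in sedentary and 4 and 12 in exercised mice. Library size scaling also split all genes into 3.81% higher and 25.6% lower for exercise with tumor, and 5.62% and 35.3% for the tumor in exercised mice. Low depth limits Adra1a, with at most 37 reads, and the animal to animal spread is unknown for every gene.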

Other observations

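Among 7073 genes whose mean reached 100 normalized reads, the 3 whose values over the 4 libraries lay nearest to those of Adrb1, each centred on its own mean, were Tppp, Daam1 and Bace2. Tppp, encoding a protein that binds tubulin, lay at a root mean square difference of 0.043 log2 units, with log2 values of 7.81, 8.08, 6.29 and 6.70 in E(−)T(−), E(+)T(−), E(−)T(+) and E(+)T(+). Daam1, a formin that nucleates actin filaments, lay at 0.077, with values of 9.32, 9.61, 7.92 and 8.35. Bace2, a β-secretase, lay at 0.078, with values of 7.06, 7.34, 5.62 and 6.15. With 4 values per gene, this likeness is a description only.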
